A study of Rattus norvegicus with 17 samples.

Results

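The comparison described here set middle cerebral arteries (MCAs) that had been occluded and reperfused against MCAs of rats that were never operated, across all genes measured on the arrays. It used 11 of the 17 arrays of the series, chosen by their labels alone: 5 arrays of group occluded MCA, from rats F8, F10, F12, F15 and F33, and 6 arrays of group control MCAs, from rats F4, F16, F21, F22, F26 and F36. All rats were young adult female Wistar rats of about 250 grams that were not in proestrus, the cycle phase of high estrogen. The occluded MCAs came from transient middle cerebral artery occlusion (tMCAO), in which a filament was passed through the vessel to the right MCA under isoflurane in N2O and O2 and later withdrawn, and were taken 3 h after reperfusion. The control MCAs came from non-operated rats, and there was no sham operation. Occlusion, surgery, anesthesia and the side of the artery therefore cannot be told apart in this comparison. The 6 arrays of group non-occluded MCA, the left arteries of operated rats, are used below only beside single results, and 5 of them came from the same rats as the occluded MCAs. Each array held 1 artery, so the p-values measure the spread between animals.

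The MCA is a muscular artery with 1 layer of endothelium, several layers of smooth muscle and an outer coat of fibroblasts and meningeal cells. Its tone follows the smooth muscle membrane potential, which potassium channels lower, and the calcium that enters through the membrane or leaves internal stores. Receptors for endothelin, vasopressin and serotonin constrict the vessel, whereas cyclic GMP from soluble guanylate cyclase and cyclic AMP from prostacyclin receptors relax it. An artery whose flow was stopped and restored has met both lack of oxygen and nutrients and their return, and cells that meet such a change are known to alter protein synthesis, protein folding and fuel use.

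The values are log2 signals, and a difference of 1 between groups is a 2-fold change. A gene was called when limma gave an adjusted p under 0.05 over all 13810 probe sets, with 1 probe set per gene for 13205 genes. Smooth muscle markers were read as a check of the tissue. Myh11, the smooth muscle myosin, had 12.69, 12.81, 12.85, 12.79 and 12.76 in occluded MCAs, against 12.81 to 13.08 (median 12.95) in control MCAs, and Tagln, an actin-binding protein of smooth muscle, had 13.09, 13.27, 13.25, 13.11 and 13.16 in occluded MCAs, against 13.15 to 13.31 (median 13.27) in control MCAs. Of the 8 smooth muscle markers measured 1 was higher and 4 lower in occluded MCAs, with a median log2 difference of -0.20 and summed log2 levels of 14.97 to 15.14 in occluded and 14.96 to 15.27 in control MCAs. The falls included Lmod1, a leiomodin that builds actin filaments (log2 difference -0.86, SE 0.173, adjusted p = 0.00179), and Smtn, smoothelin (log2 difference -0.68, SE 0.128, adjusted p = 0.00109). Myh11 did not pass the test (log2 difference -0.17, SE 0.0683, adjusted p = 0.0757), but was called lower without control MCA F16 or F26 (log2 difference -0.19 in both) and without the 4 arrays of highest meningeal level (-0.25, adjusted p = 0.0256). Of the 5 neuron markers measured none exceeded 6.46 on any array, but 2 were called higher and none lower in occluded MCAs. The 2 were Snap25 (log2 difference 0.57, adjusted p = 0.0316 by limma) and Syt1 (0.36, adjusted p = 0.038). Summed log2 levels of the neuron markers were 7.815 to 8.265 in occluded and 7.754 to 7.884 in control MCAs. Fewer cells of a type and less RNA per cell cannot be told apart in such samples.

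A principal component analysis placed 60.1% of the variance on a component that separated the 2 groups and 16.7% on a component that did not. The 4 arrays highest on that second component were also the 4 of highest mean level of 3 carriers of meningeal cells, Slc22a8, Slc13a4 and Slc6a13. Their mean log2 signal was 11.5 in occluded MCA F8 and 9.01 to 10.2 in the other occluded MCAs, against 11.5, 11.5 and 11.8 in control MCAs F16, F22 and F26 and 8.79, 9.10 and 10.2 in control MCAs F4, F21 and F36. Meningeal level therefore varied within both groups. The astrocyte markers Gfap, Aqp4 and Slc1a2 had a mean of 8.82 and 8.57 in occluded MCAs F10 and F33 and of 6.65 to 7.89 in F8, F12 and F15, against 5.72 to 7.28 in control MCAs. These 3 were picked out after their values were seen: over all 8 astrocyte markers measured 1 was higher and 1 lower, and the summed log2 levels of 10.95 to 12.05 in occluded MCAs lay inside those of 10.37 to 12.47 in control MCAs. Of 6 neutrophil markers 4 were higher in occluded MCAs, with summed log2 levels of 9.39 to 10.6 in occluded MCAs and 8.05 to 8.24 in control MCAs. The largest difference of the 6 was that of Lcn2 (log2 difference 3.27), which stressed cells also make. Camp (log2 difference 0.04, adjusted p = 0.804 by limma) and Csf3r (0.046, adjusted p = 0.78) did not pass the test. Compared with non-occluded MCAs, 1 of the 6 markers was higher and none lower. The part of these cells in the results was not tested, and counts are given below without these arrays where that matters.

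**Figure D1:**
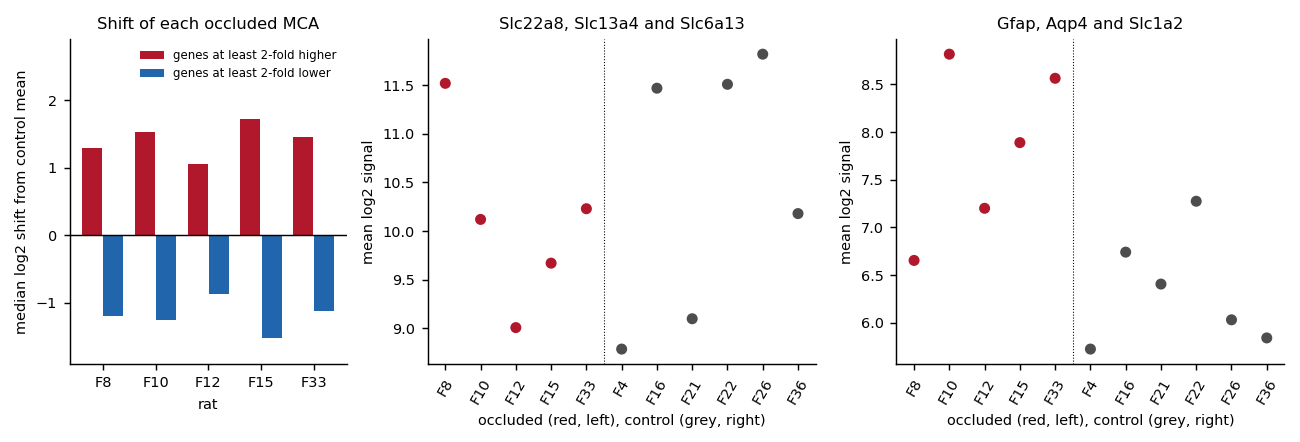
Left, median log2 shift of each occluded MCA from the control mean over genes called at least 2-fold higher (red bars) or lower (blue bars) without that artery. Middle and right, mean log2 signal of 3 meningeal carrier genes and of 3 astrocyte markers on each of the 11 arrays, with occluded MCAs in red and control MCAs in grey. The shift was largest in F15 (1.72 and -1.52) and smallest in F12 (1.06 and -0.86).

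In occluded MCAs 2359 genes were higher and 2780 lower than in control MCAs, which is 17.9% and 21.1% of the genes tested. Most of these differences were small, and 3330 of the 5139 genes called changed by under 1.5-fold. At least 2-fold changes ran mainly upward: 437 genes were higher (3.31%) and 199 lower (1.51%). A rise of 4-fold or more was met by 93 genes and a fall of that size by 9 genes. On 1670 genes (12.6%) every occluded MCA lay above every control MCA, and on 1662 genes (12.6%) every occluded MCA lay below every control MCA. The median log2 difference over all genes was -0.0201, and the median SD was 0.142 among occluded and 0.153 among control MCAs. Counts of list members below are to be read beside the 17.9% of all genes called higher and the 21.1% called lower.

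All 5 occluded MCAs moved the same way on the genes that changed most, but not equally far. Over genes called at least 2-fold higher without the artery in question, the median shift from the control mean was 1.30 in F8, 1.53 in F10, 1.06 in F12, 1.72 in F15 and 1.46 in F33. Over genes at least 2-fold lower it was -1.19, -1.26, -0.86, -1.52 and -1.12 in the same order. F12 was thus the artery nearest to control and F15 the one farthest from it in both directions.

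Among the largest rises was Samd3, a gene with a sterile alpha motif domain, at 10.15, 10.00, 9.80, 10.55 and 9.89 in occluded MCAs, against 6.59 to 7.35 (median 7.02) in control MCAs. Lif, a cytokine related to interleukin-6, was at 7.42, 8.03, 9.27, 10.10 and 9.32 in occluded MCAs, against 5.60 to 6.04 (median 5.84) in control MCAs. Angptl4, a secreted inhibitor of lipoprotein lipase, was at 9.19, 8.78, 7.43, 9.64 and 8.33 in occluded MCAs, against 5.18 to 6.23 (median 5.63) in control MCAs. Samd3 was taken from the largest rises without overlap, and the groups did not overlap on Lif and Angptl4 either. The occluded MCAs ranged over more than 2 log2 units for Lif and Angptl4. The rises were 8.5-fold (log2 difference 3.09, SE 0.177, adjusted p = 1.41e-07), 8.09-fold (log2 difference 3.02, SE 0.378, adjusted p = 5.81e-05) and 8.01-fold (log2 difference 3.00, SE 0.325, adjusted p = 1.93e-05).

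Akap6, Fhl5 and Lrrc39 were among the largest falls. Akap6, which anchors protein kinase A at the nuclear envelope and the calcium stores of muscle, was at 7.08, 7.69, 7.92, 7.46 and 7.84 in occluded MCAs, against 9.37 to 10.26 (median 9.84) in control MCAs, a 4.61-fold fall (log2 difference -2.21, SE 0.197, adjusted p = 4.62e-06). Fhl5, a LIM domain coactivator, was at 7.03, 6.74, 7.46, 6.71 and 7.13 in occluded MCAs, against 8.41 to 9.73 (median 9.45) in control MCAs (log2 difference -2.31, SE 0.215, adjusted p = 6.14e-06). Lrrc39, a leucine-rich protein of the muscle M-band, was at 4.69, 4.98, 5.16, 4.47 and 4.96 in occluded MCAs, against 6.21 to 7.51 (median 7.13) in control MCAs (log2 difference -2.23, SE 0.205, adjusted p = 5.81e-06). The largest falls were taken from genes without overlap, so on each of the 3 every occluded MCA lay below every control MCA by choice. F12 was the highest occluded MCA on all 3. Grip2, a scaffold protein with PDZ domains, fell 5.22-fold (log2 difference -2.38, SE 0.21, adjusted p = 4.22e-06), and Ldb2, a partner of LIM-homeodomain proteins, fell 3.38-fold (log2 difference -1.76, SE 0.138, adjusted p = 1.78e-06).

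**Figure D2:**
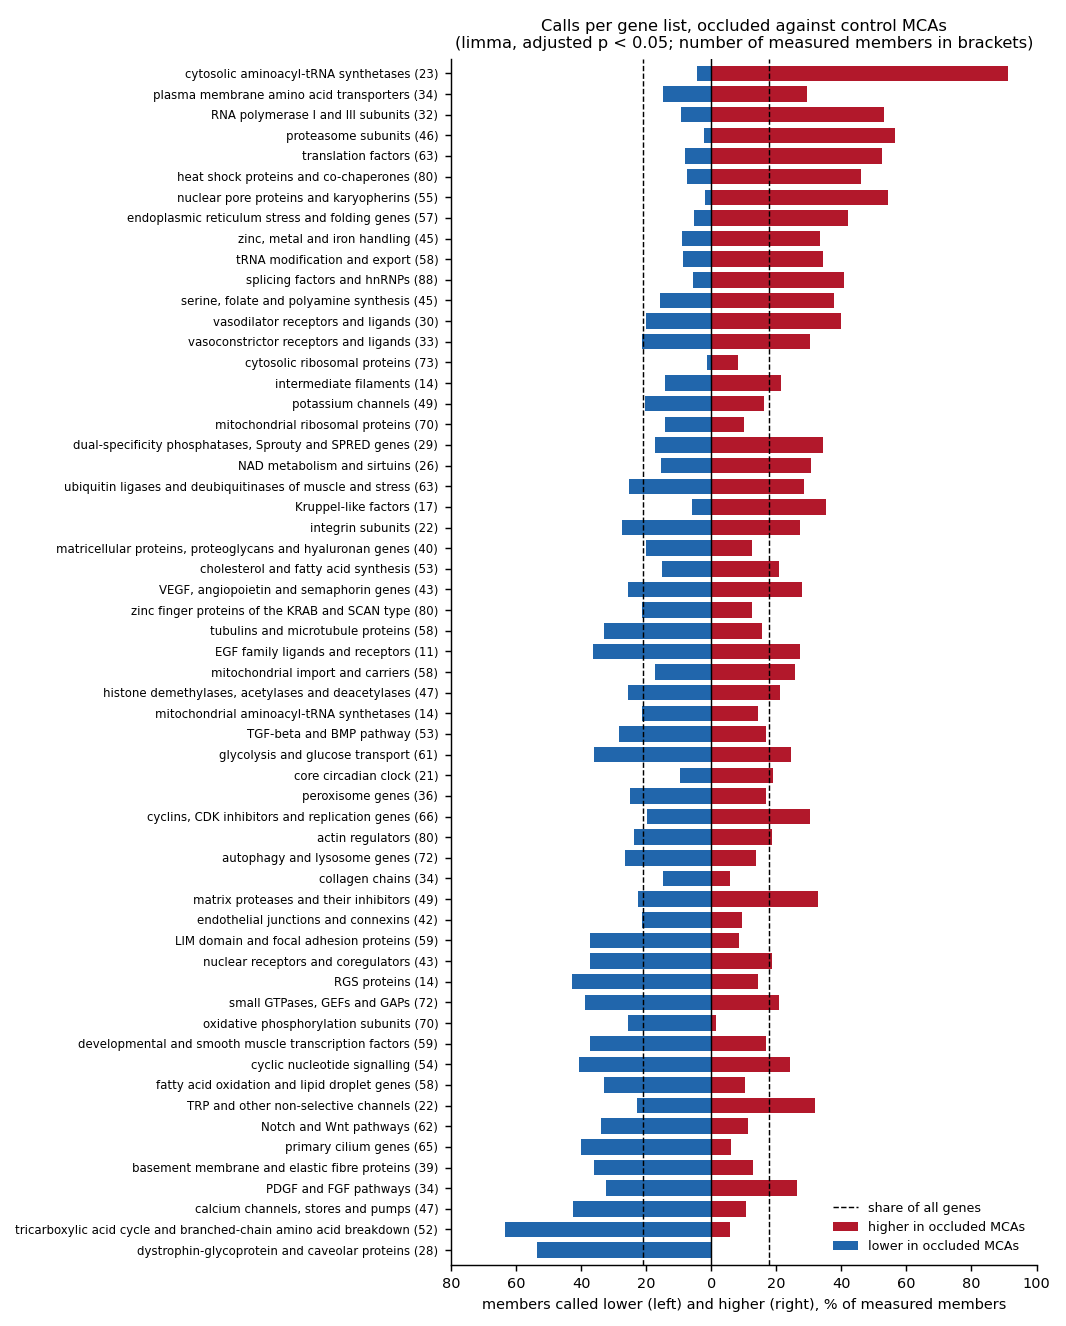
Share of the measured members of each of 58 gene lists called lower (blue, left of 0) and higher (red, right of 0) in occluded than in control MCAs, with dashed lines at the shares over all genes (21.1% and 17.9%). Lists run from the highest median log2 difference at the top to the lowest at the bottom, and cytosolic aminoacyl-tRNA synthetases (91.3% higher) stand at the top and dystrophin-glycoprotein and caveolar proteins (53.6% lower) at the bottom.

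Aminoacyl-tRNA synthetases charge each tRNA with its amino acid, and cells hold one set in the cytosol and another in mitochondria. Of the 23 cytosolic synthetases and partners measured 21 were higher in occluded MCAs, 1 fell and 1 did not reach the threshold, with a median log2 difference of 0.90 beside -0.0201 over all genes. 10 of them rose at least 2-fold. The count was 20 higher and 1 lower in each of 3 further fits, without the 4 arrays of highest meningeal level, without the 3 control arrays of lowest meningeal level and without the 2 occluded arrays of highest astrocyte level. Of 14 mitochondrial synthetases 2 were higher (14.3%) and 3 lower (21.4%), close to the shares over all genes.

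Yars, the tyrosine enzyme, had 10.22, 10.23, 9.79, 10.15 and 9.83 in occluded MCAs, against 7.75 to 7.93 (median 7.85) in control MCAs, a 4.59-fold rise (log2 difference 2.20, SE 0.091, adjusted p = 1.72e-08). Cars, the cysteine enzyme, had 8.85, 9.08, 8.57, 8.96 and 8.74 in occluded MCAs, against 6.90 to 7.22 (median 7.02) in control MCAs (log2 difference 1.80, SE 0.0948, adjusted p = 7.09e-08). Iars, the isoleucine enzyme, had 9.69, 9.75, 9.61, 9.67 and 9.53 in occluded MCAs, against 8.24 to 8.45 (median 8.33) in control MCAs (log2 difference 1.30, SE 0.0635, adjusted p = 4.76e-08). Each of these groups was narrow and far from the other, with F12 or F33 lowest among the occluded MCAs. Tars, Aars, Wars, Eprs, Mars, Nars and Gars rose by between 2.08-fold and 2.56-fold. Tarsl2, a second threonine enzyme, went the other way at 6.21, 6.02, 6.21, 5.75 and 6.10 in occluded MCAs, against 6.57 to 6.84 (median 6.72) in control MCAs (log2 difference -0.66, SE 0.0904, adjusted p = 1.10e-04). Qars, the glutamine enzyme, had 9.09, 8.99, 8.74, 8.93 and 8.96 in occluded MCAs, against 8.56 to 9.12 (median 8.95) in control MCAs and did not pass the test (log2 difference 0.068, SE 0.108, adjusted p = 0.665). Compared with non-occluded MCAs, 21 of the synthetases were higher and 1 lower in occluded MCAs, beside 20.6% and 20.3% of 13143 genes in that comparison. The log2 difference of Yars from the non-occluded MCAs was 1.94 (SE 0.0728, adjusted p = 1.42e-11).

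**Figure D3:**
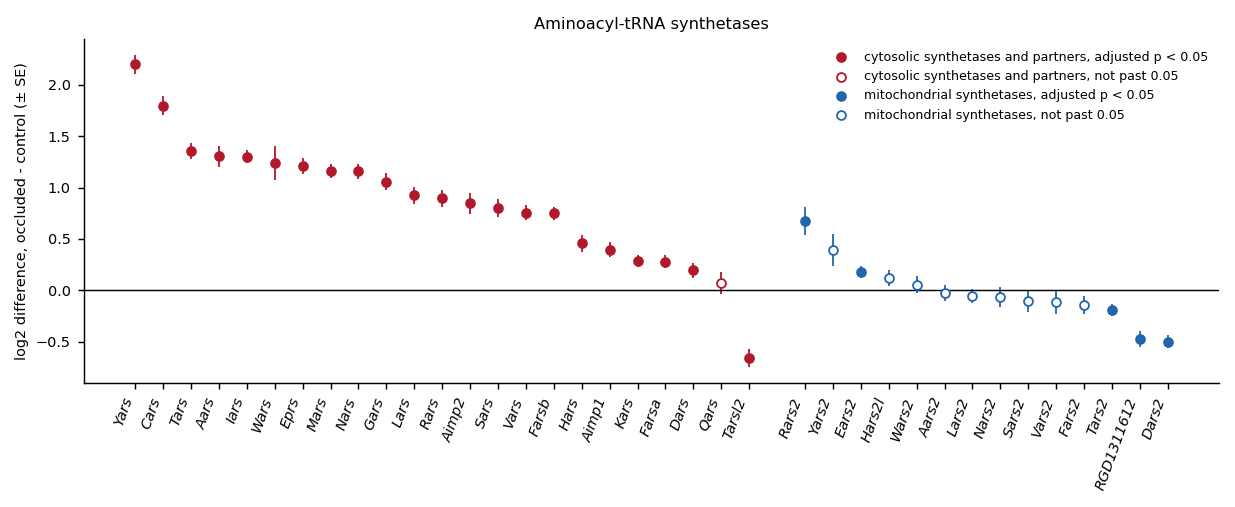
Log2 difference of occluded minus control MCAs with its SE for 23 cytosolic (red) and 14 mitochondrial (blue) synthetases and partners. Filled points passed an adjusted p of 0.05 and open points did not. Cytosolic values ran up to 2.20 for Yars, and the mitochondrial ones did not exceed 0.67.

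The amino acid response element, TGATGNAAN, is the sequence to which ATF4 dimers are known to bind. It was searched on both strands in the 300 bases around the annotated start of each gene (250 before, 50 after) in the RefSeq promoter table of build GRCr8, which held 10087 of the 13205 genes. Of all these promoters 208 (2.06%) held a match. Among enzymes of serine, folate and polyamine synthesis 2 of 37 promoters (5.41%) did, and among plasma membrane amino acid carriers 3 of 25 (12%). Of 20 promoters of cytosolic synthetases 7 (35%) held a match, and 18 of these 20 belong to genes called higher. The 7 genes were Aars, Cars, Iars, Mars, Nars, Tars and Yars, and each was called at least 2-fold higher. They are shown because the same letters recur near 7 starts, with 20 bases on each side where the table holds them, read along the gene, and with the match in capitals. In Aars there was a second match, not shown, that starts 8 bases after the start.
Aars, chr19:55908349-55908397, plus strand, 113 bases before the start: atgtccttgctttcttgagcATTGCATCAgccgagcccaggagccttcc
Cars, chr1:208225325-208225373, minus strand, 16 bases after the start: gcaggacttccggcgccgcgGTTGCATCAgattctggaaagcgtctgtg
Iars, chr17:15193649-15193697, minus strand, 25 bases before the start: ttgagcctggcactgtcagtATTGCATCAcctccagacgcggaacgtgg
Mars, chr7:65023743-65023791, minus strand, 18 bases before the start: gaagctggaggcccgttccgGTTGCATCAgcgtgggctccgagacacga
Nars, chr18:60275768-60275816, minus strand, 14 bases before the start: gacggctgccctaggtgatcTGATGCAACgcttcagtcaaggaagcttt
Tars, chr2:62114802-62114850, minus strand, 28 bases before the start: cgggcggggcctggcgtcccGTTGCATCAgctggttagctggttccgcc
Yars, chr5:146820181-146820212, plus strand, 38 bases after the start: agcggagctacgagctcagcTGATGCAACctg
A match in these letters is a description of the promoter and not a measured binding site. Atf4 itself, the transcription factor of the amino acid response, had 11.07, 11.28, 10.93, 11.23 and 11.01 in occluded MCAs, against 9.71 to 10.12 (median 9.86) in control MCAs (log2 difference 1.20, SE 0.0949, adjusted p = 1.88e-06), with no overlap between the groups.

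Other parts of the protein synthesis machinery rose less. Of 63 translation factors 33 were higher and 5 lower, with a median of 0.23. Eif1a, which helps the ribosome scan for the start codon, had 10.26, 10.33, 9.99, 10.48 and 10.32 in occluded MCAs, against 8.12 to 8.43 (median 8.32) in control MCAs, a 3.9-fold rise (log2 difference 1.96, SE 0.0868, adjusted p = 2.11e-08). Eif4a1, the helicase that unwinds the messenger, rose 2.15-fold (adjusted p = 1.52e-06 by limma), and the termination factors Gspt1 and Etf1 rose 2.07-fold (log2 difference 1.05, SE 0.0737, adjusted p = 7.17e-07) and 1.98-fold (log2 difference 0.98, SE 0.0597, adjusted p = 2.08e-07). Eef2k, the kinase that slows elongation, had 8.43, 8.81, 8.95, 7.99 and 8.87 in occluded MCAs, against 9.60 to 10.14 (median 9.86) in control MCAs and fell 2.4-fold (log2 difference -1.26, SE 0.172, adjusted p = 1.08e-04). F15 was the lowest and F12 the highest occluded MCA on Eef2k, and the groups did not overlap. Cytosolic ribosomal proteins changed little, with 6 of 73 higher and 1 lower.

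RNA polymerases I and III, which make ribosomal and transfer RNA, had 17 of 32 measured subunits and factors higher and 3 lower (median 0.26). Polr1e, a subunit of polymerase I, had 7.40, 7.42, 7.07, 7.66 and 7.68 in occluded MCAs, against 6.07 to 6.50 (median 6.38) in control MCAs (log2 difference 1.11, SE 0.114, adjusted p = 1.32e-05). Of 58 genes of tRNA modification and export 20 were higher and 5 lower (3 without occluded MCA F15). Pop1, a protein of the ribonuclease that trims transfer RNA precursors, had 6.57, 6.76, 6.77, 7.07 and 6.99 in occluded MCAs, against 5.31 to 5.80 (median 5.55) in control MCAs (log2 difference 1.30, SE 0.105, adjusted p = 2.27e-06), and Xpot, the export receptor of transfer RNA, rose 1.78-fold (log2 difference 0.83, SE 0.0857, adjusted p = 1.30e-05). On these 3 genes all occluded MCAs lay above all control MCAs. Nuclear pore proteins and karyopherins, the carriers through the pore, were higher in 30 of 55 and lower in 1, with a median of 0.20. Ipo5, an import receptor, rose 2.08-fold (log2 difference 1.05, SE 0.138, adjusted p = 7.82e-05), and Ran, the GTPase that drives transport, 1.6-fold (log2 difference 0.68, SE 0.0706, adjusted p = 1.48e-05). Without the 4 arrays of highest meningeal level 17 of these members were called higher and 2 lower, and without the 2 occluded arrays of highest astrocyte level 18 and 1. The E-box CACGTG was found on either strand in 7 of 50 nuclear pore promoters (14%), all 7 of genes called higher, and in 954 of all promoters (9.46%). Splicing factors were higher in 36 of 88 and lower in 5, and in 22 and 4 without the 4 arrays of highest meningeal level.

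Amino acid carriers of the plasma membrane moved in both directions. Of 34 measured 10 were higher and 5 lower, and 17 and 5 without the 4 arrays of highest meningeal level. Slc7a5, the exchanger of large neutral amino acids, had 10.64, 10.78, 10.38, 10.73 and 10.75 in occluded MCAs, against 7.18 to 8.27 (median 7.45) in control MCAs, an 8.67-fold rise (log2 difference 3.12, SE 0.177, adjusted p = 1.38e-07). Its heavy chain partner Slc3a2 had 11.01, 11.01, 10.56, 10.90 and 10.79 in occluded MCAs, against 9.25 to 10.39 (median 9.85) in control MCAs (log2 difference 1.03, SE 0.225, adjusted p = 0.00307). Slc7a1, the carrier of arginine and lysine, had 9.49, 9.92, 9.04, 9.47 and 9.28 in occluded MCAs, against 7.15 to 7.83 (median 7.47) in control MCAs (log2 difference 1.97, SE 0.148, adjusted p = 1.25e-06). The groups did not overlap on these 3 genes, and F12 was the lowest occluded MCA on each. The glutamine carrier Slc1a5 and the serine carrier Slc1a4 rose 2.28-fold and 2.25-fold. Slc6a6, the taurine carrier, went down to 6.28, 6.10, 6.46, 6.14 and 6.37 in occluded MCAs, against 7.74 to 8.07 (median 7.89) in control MCAs, a 3.09-fold fall (log2 difference -1.63, SE 0.0901, adjusted p = 1.04e-07). Slc7a11, the cystine carrier, had 10.32, 10.23, 9.11, 10.18 and 10.22 in occluded MCAs, against 7.21 to 10.80 (median 9.50) in control MCAs and did not pass the test (log2 difference 0.69, SE 0.628, adjusted p = 0.431), and control MCAs alone spanned more than 3 log2 units, low in F4, F21 and F36 and high in F16, F22 and F26, the arrays of high meningeal level. The log2 difference of Slc7a11 was 1.99 without the 4 arrays of highest meningeal level (adjusted p = 0.00247) and -0.69 against control MCAs F16, F22 and F26 alone (adjusted p = 0.0531).

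Enzymes that make serine, one-carbon units, asparagine and polyamines were higher in 17 of 45 and lower in 7, and lower in 4 when occluded MCA F15 or F33 or control MCA F16 or F22 was left out. Aldh1l2, the mitochondrial formyltetrahydrofolate dehydrogenase, had 8.82, 8.95, 7.90, 9.08 and 8.05 in occluded MCAs, against 5.13 to 5.85 (median 5.35) in control MCAs, an 8.9-fold rise (log2 difference 3.15, SE 0.224, adjusted p = 7.92e-07). Asns, asparagine synthetase, had 9.86, 9.93, 9.48, 9.78 and 9.03 in occluded MCAs, against 6.35 to 6.86 (median 6.63) in control MCAs, an 8.02-fold rise (log2 difference 3.00, SE 0.155, adjusted p = 6.79e-08). Mthfd2, a mitochondrial folate enzyme, had 8.67, 8.80, 8.08, 8.62 and 8.64 in occluded MCAs, against 5.61 to 6.04 (median 5.83) in control MCAs, a 6.58-fold rise (log2 difference 2.72, SE 0.121, adjusted p = 2.11e-08). The groups lay more than 2 log2 units apart at their nearest arrays on each of the 3, and F12 and F33 were the lower occluded MCAs on Aldh1l2. Shmt2 and Psat1, which act on serine, rose 4.75-fold (log2 difference 2.25, SE 0.167, adjusted p = 1.16e-06) and 3.63-fold (log2 difference 1.86, SE 0.173, adjusted p = 6.02e-06). Odc1, the entry enzyme of polyamine synthesis, and Sat1, the entry enzyme of polyamine breakdown, rose together, Odc1 to 9.77, 10.03, 9.86, 10.43 and 10.76 in occluded MCAs, against 8.20 to 8.73 (median 8.40) in control MCAs (log2 difference 1.74, SE 0.168, adjusted p = 8.15e-06) and Sat1 to 9.67, 10.32, 9.70, 10.36 and 10.16 in occluded MCAs, against 8.26 to 8.48 (median 8.39) in control MCAs (log2 difference 1.66, SE 0.13, adjusted p = 1.74e-06). Tyms, which makes thymidylate for DNA, fell 1.66-fold (log2 difference -0.73, SE 0.142, adjusted p = 0.00143).

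Potassium channels hold the smooth muscle membrane negative. Of 49 genes of these channels 8 were higher (5 without occluded MCA F12) and 10 lower, shares close to those of all genes, and both subunits of the vascular KATP channel were among the rises. Kcnj8, its pore subunit in vascular muscle and pericytes, had 8.82, 9.21, 7.86, 8.97 and 8.58 in occluded MCAs, against 6.64 to 7.16 (median 7.02) in control MCAs, a 3.32-fold rise (log2 difference 1.73, SE 0.203, adjusted p = 3.54e-05). Abcc9, its sulfonylurea receptor subunit, had 8.62, 8.71, 7.97, 9.01 and 8.63 in occluded MCAs, against 7.13 to 7.74 (median 7.59) in control MCAs, a 2.1-fold rise (log2 difference 1.07, SE 0.164, adjusted p = 2.67e-04). F12 was the lowest occluded MCA on both and still lay above every control MCA. The differences from the non-occluded MCAs were 1.68 for Kcnj8 and 1.12 for Abcc9 (adjusted p = 1.25e-07 and 1.01e-06). Kcns3, a silent voltage-gated subunit, rose 1.92-fold (log2 difference 0.94, SE 0.0739, adjusted p = 1.76e-06).

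The voltage-gated subunits Kcna5 and Kcna2, which carry delayed rectifier current in cerebral arteries, fell. Kcna5 had 6.14, 5.69, 6.31, 5.53 and 6.08 in occluded MCAs, against 6.37 to 7.83 (median 7.11) in control MCAs (log2 difference -1.19, SE 0.234, adjusted p = 0.00149), and Kcna2 had 6.83, 7.10, 7.27, 6.80 and 7.05 in occluded MCAs, against 7.61 to 8.25 (median 8.13) in control MCAs (log2 difference -1.03, SE 0.122, adjusted p = 3.70e-05). Kcne3, a subunit that alters other potassium channels, had 5.18, 5.34, 5.47, 4.91 and 5.38 in occluded MCAs, against 6.21 to 7.06 (median 6.76) in control MCAs, a 2.79-fold fall (log2 difference -1.48, SE 0.15, adjusted p = 1.15e-05). On these 3 genes every occluded MCA lay below every control MCA, though the gap for Kcna5 was only between 6.31 in F12 and 6.37 in the lowest control MCA. Kcnn3, a calcium-activated channel of endothelium, fell 1.65-fold (log2 difference -0.73, SE 0.0737, adjusted p = 1.16e-05). The large-conductance channel did not pass the test: its pore Kcnma1 had 10.32 ± 0.15 in occluded and 10.40 ± 0.38 in control MCAs (log2 difference -0.081, SE 0.162, adjusted p = 0.739) and its beta subunit Kcnmb1 11.16 ± 0.26 in occluded and 11.45 ± 0.36 in control MCAs (log2 difference -0.29, SE 0.172, adjusted p = 0.206). Without control MCA F26 Kcnmb1 was called lower (log2 difference -0.43, adjusted p = 0.0141 by limma). Without the 4 arrays of highest meningeal level both were called lower, Kcnma1 at -0.35 (adjusted p = 0.0207) and Kcnmb1 at -0.46 (adjusted p = 0.0395). Here and below the error after a mean is the SD over 5 occluded or 6 control MCAs.

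TRP channels are cation channels that respond to stretch, lipids and receptors. In the list that holds them together with other channels, Ano1 among them, 7 of 22 members were higher (31.8%) and 5 lower (22.7%). Over all genes 17.9% were higher and 21.1% lower. Trpc6, opened by diacylglycerol, had 8.78, 9.36, 9.00, 9.33 and 9.28 in occluded MCAs, against 6.36 to 7.59 (median 7.25) in control MCAs, a 3.9-fold rise (log2 difference 1.96, SE 0.199, adjusted p = 1.15e-05). Trpv4, a channel linked to endothelial and muscle relaxation, had 8.06, 8.21, 8.00, 8.09 and 7.69 in occluded MCAs, against 6.50 to 6.92 (median 6.67) in control MCAs (log2 difference 1.34, SE 0.101, adjusted p = 1.26e-06). The groups did not overlap on either gene, and the 5 occluded MCAs lay close together on both. Ano1, the calcium-activated chloride channel, rose 1.88-fold (log2 difference 0.91, SE 0.206, adjusted p = 0.00389), and Trpc1 fell 1.42-fold (log2 difference -0.51, SE 0.0889, adjusted p = 6.83e-04).

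**Figure D4:**
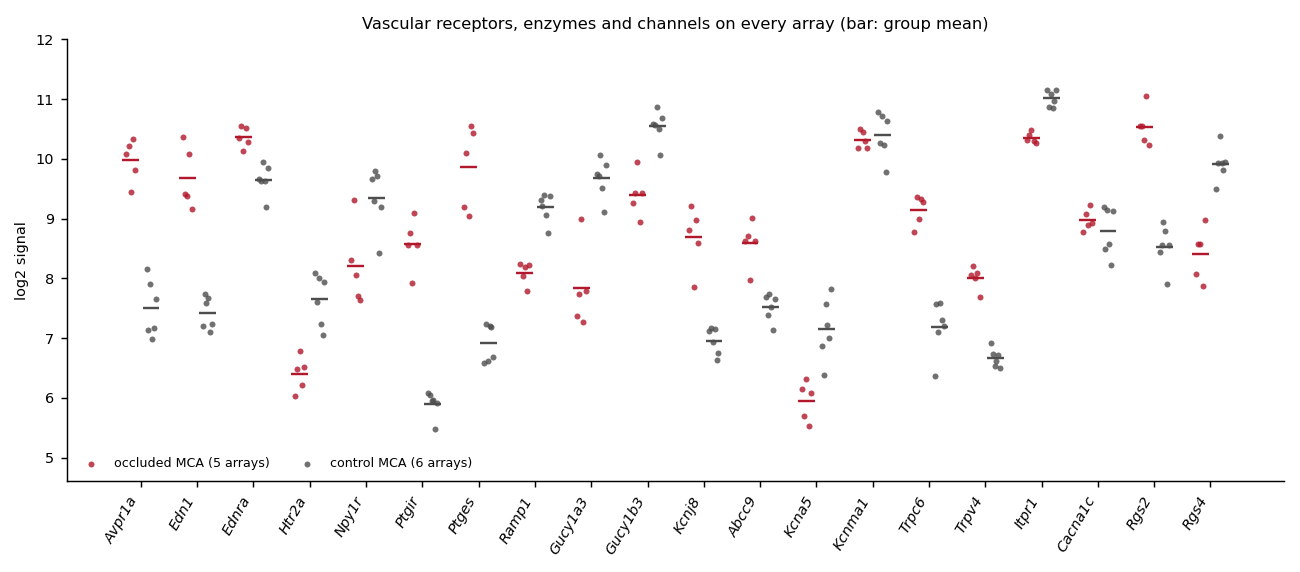
Log2 signal of 20 vascular genes on each occluded (red, left of each pair) and control (grey, right) array, with a bar at the group mean. The groups do not overlap for genes such as Avpr1a (9.45 to 10.33 against 6.99 to 8.16) and Ramp1, and they overlap for Npy1r, Kcnma1 and Cacna1c.

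Calcium handling genes leaned downward, with 5 of 47 higher, 20 lower and a median of -0.23. Pln, phospholamban, the brake on the calcium pump of the store, had 11.69, 11.78, 11.85, 11.66 and 11.60 in occluded MCAs, against 12.20 to 12.60 (median 12.49) in control MCAs (log2 difference -0.73, SE 0.0804, adjusted p = 2.10e-05). Itpr1, the inositol trisphosphate receptor through which stored calcium leaves, had 10.31, 10.40, 10.48, 10.30 and 10.26 in occluded MCAs, against 10.85 to 11.16 (median 11.03) in control MCAs (log2 difference -0.67, SE 0.077, adjusted p = 3.25e-05). On both the occluded MCAs lay close together and below every control MCA. Casq2, which binds calcium inside the store, fell 1.75-fold (log2 difference -0.81, SE 0.156, adjusted p = 0.00133), the exchanger Slc8a1 1.78-fold (log2 difference -0.83, SE 0.153, adjusted p = 0.001) and the pump Atp2b4 1.79-fold (log2 difference -0.84, SE 0.151, adjusted p = 8.11e-04). Atp2a3, a store pump found in endothelium, had 6.85, 6.97, 7.78, 6.46 and 7.43 in occluded MCAs, against 8.16 to 8.77 (median 8.59) in control MCAs, a 2.77-fold fall (log2 difference -1.47, SE 0.202, adjusted p = 1.12e-04). The main store pump Atp2a2 had 11.88 ± 0.081 in occluded and 11.85 ± 0.18 in control MCAs (log2 difference 0.031, SE 0.0878, adjusted p = 0.82) and the pore of the L-type channel, Cacna1c, 8.98 ± 0.17 in occluded and 8.79 ± 0.42 in control MCAs (log2 difference 0.19, SE 0.177, adjusted p = 0.447), and neither passed the test. Against control MCAs F16, F22 and F26 alone Cacna1c was called higher (log2 difference 0.55, adjusted p = 0.00623). Orai1, the channel that opens when stores empty, rose 1.61-fold (log2 difference 0.68, SE 0.156, adjusted p = 0.00397).

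Among ligands and receptors of constriction 10 of 33 were higher (30.3%) and 7 lower (21.2%). The share lower was close to the 21.1% of all genes, and the share higher lay above their 17.9%. Avpr1a, the V1a vasopressin receptor, had 10.07, 10.21, 9.45, 10.33 and 9.82 in occluded MCAs, against 6.99 to 8.16 (median 7.41) in control MCAs, a 5.57-fold rise (log2 difference 2.48, SE 0.224, adjusted p = 5.06e-06). Edn1, endothelin-1, had 10.37, 9.41, 9.38, 10.09 and 9.17 in occluded MCAs, against 7.10 to 7.74 (median 7.41) in control MCAs, a 4.8-fold rise (log2 difference 2.26, SE 0.212, adjusted p = 6.33e-06), and its muscle receptor Ednra had 10.35, 10.55, 10.13, 10.51 and 10.28 in occluded MCAs, against 9.20 to 9.96 (median 9.65) in control MCAs (log2 difference 0.71, SE 0.126, adjusted p = 7.24e-04). All occluded MCAs were above all control MCAs on the 3 genes, with F8 the highest on Edn1. The UDP receptor P2ry6 rose 2.06-fold (log2 difference 1.04, SE 0.148, adjusted p = 1.44e-04). Htr2a, the serotonin receptor of constriction, had 6.03, 6.48, 6.78, 6.22 and 6.51 in occluded MCAs, against 7.05 to 8.08 (median 7.77) in control MCAs, a 2.38-fold fall (log2 difference -1.25, SE 0.198, adjusted p = 3.34e-04), and the thromboxane receptor Tbxa2r fell 1.73-fold (log2 difference -0.79, SE 0.14, adjusted p = 7.46e-04). Npy1r, a receptor for neuropeptide Y, had 8.30, 9.31, 8.06, 7.70 and 7.63 in occluded MCAs, against 8.42 to 9.80 (median 9.48) in control MCAs (log2 difference -1.15, SE 0.309, adjusted p = 0.0108), with F10 among the controls, and against control MCAs F16, F22 and F26 alone it was not called at a difference of -0.94 (adjusted p = 0.0878).

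Of 30 genes of relaxing ligands and receptors 12 were higher (40%) and 6 lower (20%), beside 17.9% and 21.1% of all genes. Ptgir, the prostacyclin receptor, had 8.55, 8.76, 7.92, 9.09 and 8.57 in occluded MCAs, against 5.47 to 6.07 (median 5.95) in control MCAs, a 6.4-fold rise (log2 difference 2.68, SE 0.176, adjusted p = 4.04e-07). Ptges, the inducible enzyme that makes prostaglandin E2, had 9.19, 10.10, 9.04, 10.55 and 10.43 in occluded MCAs, against 6.58 to 7.24 (median 6.93) in control MCAs, a 7.71-fold rise (log2 difference 2.95, SE 0.276, adjusted p = 6.35e-06). The groups lay far apart on both, with F12 lowest among the occluded MCAs. Ptgs2, cyclooxygenase-2, which supplies their common precursor, rose 2.55-fold (log2 difference 1.35, SE 0.181, adjusted p = 9.39e-05), the prostaglandin E2 receptor Ptger4 1.86-fold (log2 difference 0.89, SE 0.152, adjusted p = 5.45e-04) and the peptide adrenomedullin, Adm, 2.03-fold (log2 difference 1.02, SE 0.241, adjusted p = 0.00493). The largest fall of the list was that of Mas1, a receptor of a vasodilator angiotensin peptide, which had 6.71, 6.98, 6.91, 6.57 and 6.71 in occluded MCAs, against 8.25 to 9.23 (median 8.79) in control MCAs, a 4-fold fall (SE 0.151 on the log2 scale, adjusted p = 1.29e-06 by limma) without overlap. Npr3, the clearance receptor of natriuretic peptides, fell 2.12-fold (log2 difference -1.08, SE 0.35, adjusted p = 0.0272) with overlap between the groups. Npr3 was not called without occluded MCA F12 or F15 or control MCA F16, F22 or F26 (log2 differences of -0.88 to -1.01) or without the 4 arrays of highest meningeal level (-0.45, adjusted p = 0.177). Ramp1, the partner that makes the calcitonin receptor-like receptor respond to calcitonin gene-related peptide, had 8.24, 8.03, 8.19, 7.79 and 8.23 in occluded MCAs, against 8.76 to 9.39 (median 9.26) in control MCAs, a 2.13-fold fall (log2 difference -1.09, SE 0.122, adjusted p = 2.37e-05). That receptor itself, Calcrl, had 8.13 ± 0.17 in occluded and 8.21 ± 0.20 in control MCAs (log2 difference -0.075, SE 0.109, adjusted p = 0.629).

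In the cyclic nucleotide pathway 13 of 54 genes were higher and 22 lower. Gucy1a3 and Gucy1b3 encode the subunits of soluble guanylate cyclase, the receptor for nitric oxide in smooth muscle. Gucy1a3 had 7.37, 7.73, 8.99, 7.27 and 7.79 in occluded MCAs, against 9.11 to 10.06 (median 9.73) in control MCAs, a 3.58-fold fall (log2 difference -1.84, SE 0.272, adjusted p = 1.97e-04). Gucy1b3 had 9.27, 9.42, 9.94, 8.95 and 9.42 in occluded MCAs, against 10.07 to 10.87 (median 10.58) in control MCAs, a 2.21-fold fall (log2 difference -1.14, SE 0.167, adjusted p = 1.83e-04). F12, at 8.99 and 9.94, stood clearly above the other occluded MCAs on both and still below every control MCA. Pde5a, which breaks down cyclic GMP, fell 1.55-fold (log2 difference -0.63, SE 0.0914, adjusted p = 1.69e-04). The kinase Prkg1 had 9.07 ± 0.097 in occluded and 9.35 ± 0.28 in control MCAs and did not pass the test (log2 difference -0.28, SE 0.123, adjusted p = 0.0872). It did so without control MCA F26 (log2 difference -0.37, adjusted p = 0.0156 by limma) and without the 4 arrays of highest meningeal level (-0.51, adjusted p = 0.0021). With the meningeal level as a covariate it was called lower as well (-0.34, adjusted p = 0.00551). Nos3, the endothelial nitric oxide synthase, had 9.43 ± 0.31 in occluded and 9.56 ± 0.053 in control MCAs (log2 difference -0.13, SE 0.118, adjusted p = 0.43).

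On the cyclic AMP side Adcy5, an adenylyl cyclase, had 9.48, 9.91, 10.03, 9.53 and 9.73 in occluded MCAs, against 10.41 to 11.03 (median 10.77) in control MCAs (log2 difference -1.01, SE 0.147, adjusted p = 1.80e-04), while the phosphodiesterase Pde4b had 8.07, 8.26, 7.77, 8.42 and 8.14 in occluded MCAs, against 6.19 to 6.74 (median 6.46) in control MCAs, a 3.2-fold rise (log2 difference 1.68, SE 0.132, adjusted p = 1.78e-06). Neither gene had overlapping groups. Pde10a, which breaks down both cyclic nucleotides, rose 2.74-fold (log2 difference 1.46, SE 0.17, adjusted p = 3.50e-05), and Prkar1b, a regulatory subunit of protein kinase A, 2.87-fold (log2 difference 1.52, SE 0.165, adjusted p = 1.96e-05). RGS proteins shorten the signal of G protein-coupled receptors. Rgs2, which acts on the constrictor pathway through Gq, had 10.55, 10.54, 10.32, 11.05 and 10.23 in occluded MCAs, against 7.90 to 8.94 (median 8.56) in control MCAs, a 4.01-fold rise (log2 difference 2.00, SE 0.182, adjusted p = 5.13e-06), and Rgs4 had 8.07, 8.57, 8.58, 7.87 and 8.97 in occluded MCAs, against 9.50 to 10.39 (median 9.93) in control MCAs, a 2.84-fold fall (log2 difference -1.51, SE 0.193, adjusted p = 6.82e-05). Rgs5, a marker of pericytes and arterial muscle, had 9.45 ± 0.52 in occluded and 9.63 ± 0.46 in control MCAs and did not pass the test (log2 difference -0.19, SE 0.255, adjusted p = 0.605). Of the 14 measured RGS genes 2 were higher and 6 lower.

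Small GTPases and the proteins that switch them set actin tension and the calcium sensitivity of contraction. Of 72 genes 15 were higher and 28 lower. Rnd1 and Rnd3 are close relatives that lack GTPase activity and oppose RhoA, and they went in opposite directions. Rnd1 had 9.24, 8.59, 7.76, 9.06 and 8.58 in occluded MCAs, against 5.74 to 6.23 (median 5.97) in control MCAs, a 6.25-fold rise (log2 difference 2.64, SE 0.216, adjusted p = 2.34e-06). Rnd3 had 9.39, 9.47, 9.39, 9.45 and 9.25 in occluded MCAs, against 10.51 to 11.22 (median 10.68) in control MCAs, a 2.59-fold fall (log2 difference -1.37, SE 0.12, adjusted p = 3.91e-06). The occluded MCAs lay close together on Rnd3 and spread widely on Rnd1 with F12 lowest, and neither gene had overlapping groups. Of the kinases that RhoA activates Rock2 rose 1.89-fold (log2 difference 0.92, SE 0.11, adjusted p = 4.35e-05) and Rock1 fell 1.62-fold (log2 difference -0.70, SE 0.122, adjusted p = 6.94e-04). Rhoa itself had 11.96 ± 0.024 in occluded and 12.02 ± 0.13 in control MCAs (log2 difference -0.063, SE 0.0674, adjusted p = 0.507). Rhoq, a relative of Cdc42, rose 2.67-fold (log2 difference 1.42, SE 0.169, adjusted p = 3.98e-05).

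Structural matrix genes changed little or fell, and genes that cut matrix rose. Of 34 collagen chains 2 were higher and 5 lower, and none changed 2-fold. Against control MCAs F16, F22 and F26 alone 6 collagen chains were higher and 3 lower. Of 39 basement membrane and elastic fibre genes 5 were higher and 14 lower. Against control MCAs F16, F22 and F26 alone they were 4 and 8, and without F15 or F33 2 were higher. Eln, elastin, had 10.21, 10.20, 10.70, 9.48 and 10.72 in occluded MCAs, against 10.99 to 11.76 (median 11.29) in control MCAs (log2 difference -1.06, SE 0.218, adjusted p = 0.00199), with F15 lowest and no overlap. Of 49 proteases and inhibitors 16 were higher and 11 lower (7 without occluded MCA F15), and 11 of the rises were at least 2-fold.

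The aggrecanase-type protease Adamts9 had 9.92, 10.19, 9.47, 10.31 and 9.26 in occluded MCAs, against 6.54 to 7.21 (median 6.98) in control MCAs, a 7.64-fold rise (log2 difference 2.93, SE 0.19, adjusted p = 3.70e-07). Adamts1, a versican-cutting relative, had 11.45, 11.26, 10.51, 11.34 and 11.07 in occluded MCAs, against 8.66 to 9.51 (median 8.89) in control MCAs, a 4.54-fold rise (log2 difference 2.18, SE 0.178, adjusted p = 2.34e-06). Timp1, an inhibitor of matrix metalloproteinases, had 12.03, 12.65, 12.23, 12.73 and 12.74 in occluded MCAs, against 10.10 to 10.52 (median 10.24) in control MCAs, a 4.63-fold rise (log2 difference 2.21, SE 0.133, adjusted p = 1.93e-07). These 3 genes were higher in every occluded MCA than in any control MCA, and the groups came nearest on Adamts1. Adam9, a membrane protease, rose 4-fold (log2 difference 2.00, SE 0.122, adjusted p = 2.13e-07). Mmp28, a metalloproteinase made in resting tissues, had 6.12, 6.40, 7.04, 5.78 and 6.30 in occluded MCAs, against 7.73 to 8.50 (median 8.31) in control MCAs, a 3.67-fold fall (log2 difference -1.87, SE 0.211, adjusted p = 2.57e-05). Mmp9, a gelatinase also used here as a neutrophil marker, had 6.37, 6.72, 7.06, 7.23 and 8.58 in occluded MCAs, against 5.80 to 6.26 (median 6.00) in control MCAs (log2 difference 1.19, SE 0.301, adjusted p = 0.0075), with F33 well above the others.

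Cell-matrix receptors split. Itga5, the fibronectin receptor subunit, had 9.69, 10.85, 10.71, 10.62 and 11.04 in occluded MCAs, against 8.12 to 8.74 (median 8.57) in control MCAs, a 4.21-fold rise (log2 difference 2.07, SE 0.203, adjusted p = 8.89e-06), with F8 the lowest occluded MCA. Itga7, the laminin receptor subunit of muscle, had 7.86, 7.84, 8.39, 7.97 and 8.14 in occluded MCAs, against 8.59 to 9.47 (median 9.15) in control MCAs, a 2.11-fold fall (log2 difference -1.08, SE 0.163, adjusted p = 2.43e-04). The common partner Itgb1 had 11.99 ± 0.083 in occluded and 11.92 ± 0.15 in control MCAs (log2 difference 0.073, SE 0.0783, adjusted p = 0.51). Of the 22 integrin subunits 6 were higher and 6 lower (27.3% each), beside 17.9% and 21.1% of all genes. Sdc4, a heparan sulfate proteoglycan of focal adhesions, rose 3.98-fold (log2 difference 1.99, SE 0.148, adjusted p = 1.16e-06), and the hyaluronan receptor Cd44 2.3-fold (log2 difference 1.20, SE 0.158, adjusted p = 8.22e-05).

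Growth factor genes moved both ways, with 9 of 34 in the PDGF and FGF list higher and 11 lower. Hgf, hepatocyte growth factor, had 7.84, 7.84, 8.79, 8.60 and 9.27 in occluded MCAs, against 5.70 to 7.56 (median 6.32) in control MCAs, a 4.26-fold rise (log2 difference 2.09, SE 0.336, adjusted p = 3.68e-04). Igfbp4, a binding protein that holds insulin-like growth factors, had 11.18, 11.12, 11.14, 11.32 and 10.95 in occluded MCAs, against 8.67 to 9.16 (median 8.77) in control MCAs, a 4.88-fold rise (log2 difference 2.29, SE 0.0995, adjusted p = 1.94e-08). Fgf7, made by mesenchymal cells, had 6.97, 7.32, 7.75, 7.07 and 6.93 in occluded MCAs, against 8.26 to 9.19 (median 8.67) in control MCAs, a 2.83-fold fall (log2 difference -1.50, SE 0.203, adjusted p = 9.97e-05). Hgf was the most variable of these in both groups and Igfbp4 the tightest. Pdgfa rose 2.19-fold (log2 difference 1.13, SE 0.0924, adjusted p = 2.39e-06), while the receptor Pdgfrb of muscle and pericytes, which binds PDGF-B, had 10.07, 10.05, 10.25, 9.66 and 10.22 in occluded MCAs, against 10.80 to 11.30 (median 11.18) in control MCAs, a 2.12-fold fall (log2 difference -1.08, SE 0.114, adjusted p = 1.60e-05). Egfr, the receptor of epidermal growth factors, rose 2.13-fold (log2 difference 1.09, SE 0.0993, adjusted p = 5.13e-06).

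Of 43 genes of VEGF, angiopoietin and semaphorin signalling 12 were higher (27.9%) and 11 lower (25.6%), beside 17.9% and 21.1% of all genes. Flt1, a receptor for VEGF-A and placental growth factor, had 9.67, 9.84, 9.66, 10.20 and 9.63 in occluded MCAs, against 8.36 to 8.99 (median 8.60) in control MCAs (log2 difference 1.17, SE 0.13, adjusted p = 2.26e-05), and Angpt2, a ligand of the Tek receptor, had 10.05, 9.80, 9.76, 10.64 and 10.21 in occluded MCAs, against 8.20 to 9.39 (median 9.03) in control MCAs (log2 difference 1.20, SE 0.21, adjusted p = 6.92e-04). Tek itself had 9.27, 9.22, 10.20, 8.36 and 9.47 in occluded MCAs, against 10.16 to 10.58 (median 10.45) in control MCAs, a 2.18-fold fall (log2 difference -1.12, SE 0.239, adjusted p = 0.00257), with F12 inside the control range and F15 lowest. Sema5a, a guidance protein, fell 2.58-fold (log2 difference -1.37, SE 0.133, adjusted p = 8.30e-06). In the TGF-beta and BMP pathway 9 of 53 were higher (17%, close to the 17.9% of all genes) and 15 lower (28.3%). Of its ligands Tgfb2 rose 2.7-fold (log2 difference 1.43, SE 0.146, adjusted p = 1.19e-05) and Tgfb3 fell 1.95-fold (log2 difference -0.97, SE 0.207, adjusted p = 0.00269). The BMP mediator Smad9 fell 2.84-fold (log2 difference -1.51, SE 0.152, adjusted p = 1.13e-05). Notch and Wnt genes were higher in 7 of 62 and lower in 21. Jag2, a Notch ligand, fell 2.49-fold (log2 difference -1.31, SE 0.188, adjusted p = 1.54e-04) and Hey2, a Notch target of arteries, 1.9-fold (log2 difference -0.93, SE 0.152, adjusted p = 4.15e-04), whereas the Wnt agonist Rspo3 rose 2.59-fold (log2 difference 1.37, SE 0.256, adjusted p = 0.00106).

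Feedback inhibitors of the growth factor kinases included some of the larger rises. Spred3, an inhibitor of Ras signalling, had 8.45, 8.67, 8.26, 9.05 and 8.43 in occluded MCAs, against 6.05 to 6.62 (median 6.24) in control MCAs, a 4.87-fold rise (log2 difference 2.29, SE 0.137, adjusted p = 1.89e-07). Dusp5 and Dusp6, phosphatases of the kinase ERK, rose 2.35-fold (log2 difference 1.23, SE 0.171, adjusted p = 1.24e-04) and 1.98-fold (log2 difference 0.98, SE 0.153, adjusted p = 2.92e-04), and Dusp8 and Dusp14 fell 2.24-fold (log2 difference -1.17, SE 0.194, adjusted p = 4.68e-04) and 2.65-fold (log2 difference -1.41, SE 0.225, adjusted p = 3.52e-04). No occluded MCA crossed the control range on these 5 genes. In the whole list 10 of 29 were higher and 5 lower. Among 66 cell cycle genes 20 were higher and 13 lower. Gadd45b, a stress gene, rose 3.17-fold (log2 difference 1.66, SE 0.119, adjusted p = 8.35e-07) and Mcm4, a replication helicase subunit, 2.4-fold (log2 difference 1.26, SE 0.113, adjusted p = 4.83e-06).

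Nuclear receptors were lower more often than higher, in 16 and 8 of 43, and the falls included receptors of steroid and thyroid hormones. Nr3c2, the mineralocorticoid receptor, had 7.42, 6.85, 7.01, 6.86 and 7.01 in occluded MCAs, against 8.23 to 8.79 (median 8.52) in control MCAs, a 2.79-fold fall (log2 difference -1.48, SE 0.127, adjusted p = 3.42e-06). Thra, a thyroid hormone receptor, had 9.10, 8.76, 9.07, 8.47 and 8.70 in occluded MCAs, against 9.79 to 10.24 (median 10.05) in control MCAs, a 2.29-fold fall (log2 difference -1.20, SE 0.127, adjusted p = 1.62e-05). The groups were separate on both. Thrb, Ppara and the glucocorticoid receptor Nr3c1 fell 1.8-fold, 2.22-fold and 1.45-fold. Ppargc1b, a coactivator of mitochondrial genes, fell to 5.40, 5.58, 6.32, 5.32 and 5.89 in occluded MCAs, against 7.17 to 7.92 (median 7.36) in control MCAs (log2 difference -1.76, SE 0.188, adjusted p = 1.76e-05), and its relative Pprc1 rose to 8.65, 8.65, 8.43, 8.95 and 8.64 in occluded MCAs, against 6.81 to 7.38 (median 7.08) in control MCAs (log2 difference 1.58, SE 0.108, adjusted p = 5.57e-07). The counts were 8 higher and 15 lower without each of the sets of arrays that stood apart.

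Of the receptors that rose Ppard had 8.99, 9.26, 8.93, 9.25 and 9.02 in occluded MCAs, against 7.72 to 7.98 (median 7.79) in control MCAs (log2 difference 1.28, SE 0.0806, adjusted p = 2.92e-07) and the orphan receptor Nr4a3 7.62, 8.34, 8.26, 8.24 and 7.71 in occluded MCAs, against 5.81 to 7.19 (median 6.11) in control MCAs (log2 difference 1.79, SE 0.242, adjusted p = 9.97e-05). Fkbp5 and Zbtb16 are known to rise with glucocorticoids. Fkbp5 was 3.2-fold higher (log2 difference 1.68, SE 0.247, adjusted p = 1.96e-04) and Zbtb16 2.57-fold higher (log2 difference 1.36, SE 0.228, adjusted p = 4.94e-04) than in control MCAs. Against the non-occluded MCAs of operated rats, however, the difference of Fkbp5 was 0.05 (SE 0.184, adjusted p = 0.856) and that of Zbtb16 -0.80 (SE 0.186, adjusted p = 0.00211). Zbtb16 was thus lower in occluded than in non-occluded MCAs.

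Of 59 developmental and smooth muscle transcription factors 10 were higher and 22 lower. Myocd, the master coactivator of smooth muscle genes, had 8.02, 8.40, 9.35, 8.61 and 8.72 in occluded MCAs, against 9.27 to 10.22 (median 9.81) in control MCAs, a 2.27-fold fall (log2 difference -1.18, SE 0.226, adjusted p = 0.00126), and only F12 lay within the control range. Mef2d, a partner of such factors in muscle, fell 1.79-fold (log2 difference -0.84, SE 0.127, adjusted p = 2.19e-04). Tbx2, a T-box repressor, had 9.99, 10.04, 9.68, 10.39 and 9.98 in occluded MCAs, against 7.79 to 8.45 (median 8.10) in control MCAs, a 3.73-fold rise (log2 difference 1.90, SE 0.153, adjusted p = 2.13e-06), and Foxo3 rose 2.08-fold (log2 difference 1.05, SE 0.106, adjusted p = 1.08e-05). Of the histone enzymes Hdac6 rose 2.41-fold (log2 difference 1.27, SE 0.104, adjusted p = 2.39e-06) and Hdac5, which holds back Mef2 factors, fell 1.97-fold (log2 difference -0.98, SE 0.0982, adjusted p = 1.07e-05). The list had 10 of 47 higher (21.3%) and 12 lower (25.5%), not far from the 17.9% and 21.1% of all genes.

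Of 21 genes of the circadian clock 4 were higher (19%) and 2 lower (9.52%), with 4 lower when occluded MCA F12 or control MCA F4 or F26 was left out. Dbp, a strongly rhythmic output gene, had 8.82, 7.17, 10.23, 9.43 and 10.43 in occluded MCAs, against 8.74 to 11.47 (median 10.52) in control MCAs (log2 difference -1.15, SE 0.608, adjusted p = 0.159), and Arntl, a core activator that peaks at another time, had 8.77, 9.33, 7.78, 8.05 and 7.35 in occluded MCAs, against 6.64 to 8.97 (median 8.12) in control MCAs (log2 difference 0.30, SE 0.462, adjusted p = 0.652). Occluded MCA F10 was lowest on Dbp and highest on Arntl, and the times of day at which the arteries were taken were not used here. Bhlhe40 and Cry1, repressors of the loop, rose 2.52-fold (log2 difference 1.33, SE 0.196, adjusted p = 1.91e-04) and 2.16-fold (log2 difference 1.11, SE 0.163, adjusted p = 1.87e-04), and Bhlhe41 fell 1.89-fold (log2 difference -0.91, SE 0.17, adjusted p = 0.00106). Kruppel-like factors were higher in 6 of 17 and lower in 1, with Klf7 at 1.6-fold (log2 difference 0.68, SE 0.124, adjusted p = 9.22e-04) and Klf4 not past the test (log2 difference 0.011, adjusted p = 0.952). Klf2, a factor that flow raises in endothelium, gave -0.31 (adjusted p = 0.156), and -0.45 (adjusted p = 0.0169) without occluded MCA F12.

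Chaperones help other proteins fold, and heat shock factor is known to raise many of them when proteins unfold. Of 80 heat shock proteins and co-chaperones 37 were higher and 6 lower (median 0.21), and without the 4 arrays of highest meningeal level 32 and 6. Hspb1, a small heat shock protein of muscle, had 11.21, 11.66, 11.53, 11.70 and 11.76 in occluded MCAs, against 9.92 to 10.77 (median 10.49) in control MCAs (log2 difference 1.15, SE 0.145, adjusted p = 6.14e-05). Dnaja1, a partner of Hsp70, had 10.76, 10.74, 11.15, 11.38 and 10.93 in occluded MCAs, against 9.56 to 10.13 (median 9.86) in control MCAs (log2 difference 1.12, SE 0.127, adjusted p = 2.83e-05). Hsph1, the nucleotide exchange factor of Hsp70, had 9.30, 9.36, 10.41, 10.86 and 10.22 in occluded MCAs, against 8.67 to 9.19 (median 8.98) in control MCAs (log2 difference 1.06, SE 0.249, adjusted p = 0.00467). On each of these genes the groups did not overlap, but Hsph1 fell into a lower pair, F8 and F10, and 3 arteries about 1 log2 unit above it. The same genes gave smaller differences of occluded from non-occluded MCAs, which were 0.11 for Hspb1, 0.52 for Dnaja1 and 0.018 for Hsph1 (adjusted p = 0.645, 0.0575 and 0.966). Hspb2, a muscle relative of Hspb1, had 7.89, 8.01, 8.38, 7.76 and 8.32 in occluded MCAs, against 8.61 to 9.32 (median 9.02) in control MCAs and fell 1.93-fold (log2 difference -0.95, SE 0.144, adjusted p = 2.41e-04).

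The heat shock element, 3 units of GAA, TTC and GAA with 2 bases between units, on either strand, was in 7 of 64 promoters of this list and in 51 of all promoters (0.506%). The genes were Hspa8, Hspd1, Hspe1, Hsph1, Dnaja1, Chordc1 and Cct4, of which 5 were called higher and Hspd1 and Hspe1, which share 1 site between their starts, were not. Without occluded MCA F8 Hspd1 and Hspe1 were called higher as well (log2 difference 0.38, adjusted p = 0.0188, and 0.26, adjusted p = 0.0392), and Hspd1 also without F10 (0.36, adjusted p = 0.0365). The matches of the 3 genes with the largest differences among the 7 are shown in capitals, with 20 bases on each side where the table holds them, so that the inverted repeats can be compared.
Dnaja1, chr5:60638393-60638445, plus strand, 9 bases after the start: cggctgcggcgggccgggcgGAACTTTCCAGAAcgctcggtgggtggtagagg
Hsph1, chr12:10427312-10427364, plus strand, 36 bases before the start: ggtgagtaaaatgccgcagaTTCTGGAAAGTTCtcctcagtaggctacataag
Chordc1, chr8:23650811-23650870, plus strand, 10 bases after the start: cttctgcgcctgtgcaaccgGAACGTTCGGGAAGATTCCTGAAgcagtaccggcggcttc
In Chordc1, a co-chaperone of Hsp90, 3 overlapping matches make 1 run of capitals. Its log2 signal was 8.62, 8.41, 9.16, 9.08 and 8.72 in occluded MCAs, against 8.17 to 8.69 (median 8.39) in control MCAs (log2 difference 0.40, SE 0.143, adjusted p = 0.0406), with overlap between the groups, and it was not called when any one of occluded MCAs F12, F15 and F33 or of control MCAs F16, F22, F26 and F36 was left out (log2 differences of 0.31 to 0.42).

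The endoplasmic reticulum folds secreted proteins, and its own stress response raises its chaperones. Of 57 genes 24 were higher and 3 lower (median 0.20), and against control MCAs F16, F22 and F26 alone 15 and 3. Hspa5, the main chaperone of this compartment, had 11.79, 11.86, 11.98, 12.22 and 11.80 in occluded MCAs, against 10.87 to 11.29 (median 11.09) in control MCAs (log2 difference 0.85, SE 0.0985, adjusted p = 3.38e-05), and Xbp1, its transcription factor, had 11.09, 11.10, 10.93, 11.13 and 11.07 in occluded MCAs, against 10.00 to 10.71 (median 10.33) in control MCAs (log2 difference 0.71, SE 0.112, adjusted p = 3.33e-04). Both groups were apart in this comparison, but occluded and non-occluded MCAs differed by only 0.18 on Hspa5 (SE 0.126, adjusted p = 0.276) and by 0.37 on Xbp1 (SE 0.12, adjusted p = 0.0205). Chac1 and Trib3, known targets of ATF4, rose 2.33-fold (log2 difference 1.22, SE 0.119, adjusted p = 8.83e-06) and 2.46-fold (log2 difference 1.30, SE 0.18, adjusted p = 1.21e-04), and Chac1 also differed from the non-occluded MCAs (1.25, SE 0.097, adjusted p = 2.15e-08). Ero1lb, an oxidase of disulfide bonds, had 6.27, 5.77, 6.12, 6.20 and 5.93 in occluded MCAs, against 6.54 to 6.94 (median 6.83) in control MCAs and fell 1.67-fold (log2 difference -0.74, SE 0.105, adjusted p = 1.49e-04). The chaperones Hsp90b1, Calr and Canx did not pass the test, with log2 differences of 0.24, 0.20 and 0.078. Without control MCA F26 Hsp90b1 and Calr were called higher, at 0.27 (adjusted p = 0.0322) and 0.24 (adjusted p = 0.0180).

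The endoplasmic reticulum stress element, CCAAT and CCACG with a spacer of fixed length, was searched on both strands and was in 9 of 47 promoters of this list and in 15 of all promoters (0.149%). Of the 9 genes Hspa5, Xbp1, Creld2 and Dnajc3 were called higher, Ero1lb lower and Hsp90b1, Calr, Canx and Derl3 neither. Against control MCAs F16, F22 and F26 alone Creld2 (log2 difference 0.49, adjusted p = 0.08 by limma) and Dnajc3 (0.26, adjusted p = 0.0981) were not called. Nor were these 2 called over 17 arrays without the rat as block (adjusted p = 0.0544 and 0.0517). Presence of the element therefore did not go with 1 direction, and a site of a gene that rose, of one that did not pass the test and of the one that fell are given with the match in capitals.
Hspa5, chr3:38452953-38453011, plus strand, 43 bases before the start: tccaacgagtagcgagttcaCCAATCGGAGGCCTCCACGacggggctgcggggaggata
Xbp1, chr14:84604538-84604596, plus strand, 65 bases before the start: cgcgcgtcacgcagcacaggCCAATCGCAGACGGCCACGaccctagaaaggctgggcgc
Calr, chr19:40213117-40213173, plus strand, 232 bases before the start: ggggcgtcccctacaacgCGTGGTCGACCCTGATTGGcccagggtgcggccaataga
Ero1lb, chr17:92941438-92941496, plus strand, 224 bases before the start: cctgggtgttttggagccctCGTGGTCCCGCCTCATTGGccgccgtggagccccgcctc
The element reads forward in Hspa5 and Xbp1 and on the other strand in Calr and Ero1lb.

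The proteasome degrades proteins marked with ubiquitin. Of 46 proteasome subunits 26 were higher and 1 lower, each by little (median 0.24). Psmd8, a lid subunit, rose most, at 7.91, 8.35, 7.99, 8.13 and 7.65 in occluded MCAs, against 7.03 to 7.48 (median 7.38) in control MCAs (log2 difference 0.69, SE 0.121, adjusted p = 6.87e-04), and Psmc1, a base ATPase, had 9.78, 10.05, 9.89, 10.03 and 10.07 in occluded MCAs, against 9.24 to 9.48 (median 9.41) in control MCAs (log2 difference 0.57, SE 0.0723, adjusted p = 6.02e-05), both without overlap. The counts were 16 and 1 without occluded MCAs F10 and F33. Of 72 autophagy and lysosome genes 10 were higher and 19 lower. The lysosomal mannosidase Manba had 7.02, 7.00, 7.10, 6.48 and 6.94 in occluded MCAs, against 7.68 to 8.15 (median 8.01) in control MCAs, a 2.04-fold fall (log2 difference -1.03, SE 0.121, adjusted p = 3.85e-05), and the protease Ctsb rose 1.47-fold (log2 difference 0.55, SE 0.108, adjusted p = 0.00146). Among ubiquitin ligases 18 of 63 were higher and 16 lower. Klhl38, of a family of ligase adaptors, had 5.64, 5.54, 7.30, 5.51 and 6.01 in occluded MCAs, against 7.35 to 8.44 (median 8.21) in control MCAs (log2 difference -2.11, SE 0.303, adjusted p = 1.59e-04), with F12 far above the other occluded MCAs, and Asb2 had 8.31, 8.69, 8.52, 8.19 and 8.84 in occluded MCAs, against 9.38 to 10.25 (median 10.00) in control MCAs (log2 difference -1.41, SE 0.173, adjusted p = 4.89e-05). Trim63, which targets muscle proteins, fell 1.81-fold (log2 difference -0.86, SE 0.122, adjusted p = 1.46e-04). Rnf125 and Rnf19b, ligases linked to immune signalling, rose 4.12-fold (log2 difference 2.04, SE 0.204, adjusted p = 1.03e-05) and 2.68-fold (log2 difference 1.42, SE 0.128, adjusted p = 4.88e-06).

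Genes of glucose metabolism moved both ways. Of 61 measured 15 were higher and 22 lower. Hk2, the inducible hexokinase, had 9.10, 9.54, 9.39, 9.90 and 9.79 in occluded MCAs, against 7.44 to 7.70 (median 7.61) in control MCAs, a 3.87-fold rise (log2 difference 1.95, SE 0.126, adjusted p = 3.56e-07). Uap1 and Gfpt2, which lead glucose into the amino sugars of glycoproteins and matrix, had 9.39, 10.25, 9.89, 10.55 and 10.20 in occluded MCAs, against 7.45 to 8.26 (median 7.86) in control MCAs (log2 difference 2.17, SE 0.19, adjusted p = 3.90e-06) and 8.70, 8.60, 8.13, 8.82 and 9.07 in occluded MCAs, against 6.64 to 7.49 (median 7.23) in control MCAs (log2 difference 1.51, SE 0.173, adjusted p = 2.96e-05). Every occluded MCA was above every control MCA on the 3 genes, by more than 1 log2 unit for Hk2. Pfkm, muscle phosphofructokinase, had 7.81, 7.71, 7.62, 7.29 and 7.71 in occluded MCAs, against 8.59 to 8.85 (median 8.77) in control MCAs, a 2.17-fold fall (log2 difference -1.12, SE 0.092, adjusted p = 2.39e-06), and Pygm, muscle glycogen phosphorylase, fell 1.81-fold (log2 difference -0.85, SE 0.106, adjusted p = 5.59e-05). Of the lactate dehydrogenase subunits Ldha, the one known from skeletal muscle, rose 1.42-fold (log2 difference 0.50, SE 0.109, adjusted p = 0.00292) and Ldhb, the one known from heart, fell 1.5-fold (log2 difference -0.58, SE 0.136, adjusted p = 0.00469). The insulin-responsive carrier Slc2a4 fell 1.66-fold (log2 difference -0.73, SE 0.158, adjusted p = 0.00293), and Slc2a1, the carrier of the blood-brain barrier, was 1.91-fold higher (log2 difference 0.93, SE 0.228, adjusted p = 0.00607) with overlap and differed from the non-occluded MCAs by 0.21 (adjusted p = 0.44). Slc2a1 was not called at a difference of 0.57 against control MCAs F16, F22 and F26 alone (adjusted p = 0.0724), nor at 0.78 without occluded MCAs F10 and F33 (adjusted p = 0.0577).

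The tricarboxylic acid cycle burns acetyl groups in mitochondria, and the breakdown of branched-chain amino acids feeds it. Of 52 genes of the tricarboxylic acid cycle and branched-chain amino acid breakdown 33 were lower and 3 higher, with a median of -0.32. Without the 4 arrays of highest meningeal level 21 were lower and 2 higher. Idh2, mitochondrial isocitrate dehydrogenase, had 9.94, 10.19, 10.33, 9.61 and 10.04 in occluded MCAs, against 10.71 to 11.06 (median 10.90) in control MCAs (log2 difference -0.87, SE 0.115, adjusted p = 8.80e-05), and Idh3a, the subunit of the cycle's own enzyme, fell 1.57-fold (log2 difference -0.65, SE 0.139, adjusted p = 0.00274). Bcat1, the cytosolic aminotransferase of branched-chain amino acids, had 9.49, 9.36, 9.02, 9.34 and 9.69 in occluded MCAs, against 7.78 to 8.92 (median 8.33) in control MCAs, a 2.09-fold rise (log2 difference 1.06, SE 0.192, adjusted p = 8.56e-04). The groups did not overlap on Idh2 and Bcat1, and F15 was the lowest occluded MCA on Idh2.

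Fatty acid oxidation and lipid droplet genes were lower in 19 of 58 and higher in 6. Hadh, a dehydrogenase of the oxidation cycle, had 8.30, 8.15, 7.83, 7.52 and 8.25 in occluded MCAs, against 9.01 to 9.51 (median 9.41) in control MCAs, a 2.54-fold fall (log2 difference -1.35, SE 0.141, adjusted p = 1.50e-05). Acsl1, which activates fatty acids, had 9.35, 8.78, 8.53, 8.23 and 8.69 in occluded MCAs, against 9.65 to 10.29 (median 10.05) in control MCAs, a 2.46-fold fall (log2 difference -1.30, SE 0.17, adjusted p = 8.06e-05), while Acsl4, an enzyme of the same kind that prefers polyunsaturated fatty acids, had 7.89, 8.60, 8.09, 8.50 and 8.51 in occluded MCAs, against 6.95 to 7.50 (median 7.22) in control MCAs (log2 difference 1.07, SE 0.148, adjusted p = 1.15e-04). The 3 genes had separate groups, with F15 lowest among the occluded MCAs on both genes that fell. Acadm and Acadl, dehydrogenases of medium and long chains, fell 1.86-fold (log2 difference -0.89, SE 0.0877, adjusted p = 9.08e-06) and 1.84-fold (log2 difference -0.88, SE 0.104, adjusted p = 3.88e-05). Of 70 subunits of oxidative phosphorylation 18 were lower and 1 higher, each fall under 2-fold, and without occluded MCA F15 11 were lower and against control MCAs F16, F22 and F26 alone 10. Mitochondrial ribosomal proteins were higher in 7 of 70 and lower in 10.

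Ch25h, which makes 25-hydroxycholesterol, had 11.56, 11.09, 9.85, 11.47 and 10.98 in occluded MCAs, against 7.47 to 9.64 (median 8.45) in control MCAs, a 5.6-fold rise (log2 difference 2.49, SE 0.448, adjusted p = 8.45e-04), with a wide spread in both groups and no overlap. In the list of cholesterol and fatty acid synthesis 11 of 53 were higher and 8 lower than in control MCAs, and 21 were higher and 4 lower than in non-occluded MCAs. Nampt, the entry enzyme of NAD salvage, had 9.68, 10.05, 9.98, 10.05 and 9.96 in occluded MCAs, against 8.33 to 8.73 (median 8.62) in control MCAs, a 2.54-fold rise (log2 difference 1.34, SE 0.0899, adjusted p = 4.65e-07). Among the PARP enzymes that use NAD, Parp3, Parp9 and Parp14 rose 2.41-fold (log2 difference 1.27, SE 0.0838, adjusted p = 4.08e-07), 2.43-fold (log2 difference 1.28, SE 0.161, adjusted p = 5.84e-05) and 2.1-fold (log2 difference 1.07, SE 0.188, adjusted p = 6.86e-04). The NAD list had 8 of 26 higher and 4 lower.

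Of the genes that tie muscle cells to matrix and actin most that changed fell. The dystrophin-glycoprotein and caveolar list had 15 of 28 lower and none higher, with a median of -0.39, and 13 to 17 lower and none higher in each fit without arrays that stood apart. Sntb1, a syntrophin adaptor, had 7.71, 7.64, 7.46, 7.12 and 7.74 in occluded MCAs, against 8.83 to 9.38 (median 9.16) in control MCAs, a 3.06-fold fall (log2 difference -1.61, SE 0.128, adjusted p = 1.94e-06). Sgca, alpha-sarcoglycan, had 7.33, 7.65, 7.62, 7.34 and 7.69 in occluded MCAs, against 7.78 to 8.59 (median 8.43) in control MCAs (log2 difference -0.81, SE 0.141, adjusted p = 6.86e-04), and Dag1, dystroglycan, had 10.02, 9.88, 9.61, 9.46 and 9.88 in occluded MCAs, against 10.05 to 10.73 (median 10.61) in control MCAs (log2 difference -0.76, SE 0.13, adjusted p = 5.79e-04). No occluded MCA reached the lowest control MCA on these 3, though F8 came close on Dag1. Dystrophin itself, Dmd, had 10.14 ± 0.18 in occluded and 10.45 ± 0.37 in control MCAs (log2 difference -0.31, SE 0.162, adjusted p = 0.155) and Cav1, the main caveolar protein, 10.70 ± 0.38 in occluded and 11.05 ± 0.26 in control MCAs (log2 difference -0.35, SE 0.172, adjusted p = 0.129), and neither passed the test. Without control MCA F26 both were called lower, Dmd at -0.41 (adjusted p = 0.0423) and Cav1 at -0.45 (adjusted p = 0.0445). Dmd was also called lower without the 4 arrays of highest meningeal level (-0.58, adjusted p = 0.00167) and with the meningeal level as a covariate (-0.39, adjusted p = 0.00291).

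LIM domain and focal adhesion proteins were lower in 22 of 59 and higher in 5 (3 without occluded MCA F10). Lims2, of the complex that links integrins to actin, had 8.54, 8.58, 9.13, 8.18 and 8.76 in occluded MCAs, against 9.39 to 10.32 (median 10.18) in control MCAs, a 2.7-fold fall (log2 difference -1.43, SE 0.185, adjusted p = 7.39e-05), and Pdlim3, of the muscle dense bodies, fell 2.38-fold (log2 difference -1.25, SE 0.147, adjusted p = 3.69e-05). Of 80 actin regulators 15 were higher (18.8%) and 19 lower (23.8%), close to the 17.9% and 21.1% of all genes. Xirp1, an actin-binding protein of injured muscle, had 10.61, 11.54, 11.05, 11.47 and 10.85 in occluded MCAs, against 8.65 to 9.81 (median 9.04) in control MCAs, a 3.98-fold rise (log2 difference 1.99, SE 0.237, adjusted p = 3.92e-05), and Synpo2l had 6.63, 6.96, 7.77, 6.90 and 6.94 in occluded MCAs, against 8.57 to 9.38 (median 9.06) in control MCAs, a 3.99-fold fall (SE 0.185 on the log2 scale, adjusted p = 6.02e-06 by limma). Flnc, filamin C, had 7.97, 9.37, 9.17, 9.52 and 9.75 in occluded MCAs, against 7.55 to 8.23 (median 7.93) in control MCAs (log2 difference 1.24, SE 0.264, adjusted p = 0.00253), where F8 lay inside the control range and the other 4 well above it. Of the tubulin isotypes Tubb6 had 10.41, 10.73, 10.37, 10.79 and 10.45 in occluded MCAs, against 8.44 to 8.88 (median 8.58) in control MCAs, a 3.86-fold rise (log2 difference 1.95, SE 0.101, adjusted p = 6.85e-08), and Tuba4a rose 2.89-fold (log2 difference 1.53, SE 0.191, adjusted p = 5.59e-05). In the microtubule list as a whole 9 of 58 were higher and 19 lower. Among intermediate filaments Des, desmin, rose 1.37-fold (log2 difference 0.46, SE 0.0728, adjusted p = 3.40e-04) and Vim, vimentin, fell 1.32-fold (log2 difference -0.40, SE 0.0616, adjusted p = 2.62e-04).

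Primary cilium genes were lower in 26 of 65 and higher in 4 (median -0.17). Ptch1 and Smo, the hedgehog receptor and its effector at the cilium, fell 1.63-fold (log2 difference -0.71, SE 0.13, adjusted p = 9.74e-04) and 1.65-fold (log2 difference -0.72, SE 0.152, adjusted p = 0.00242), and the transport protein Ift81 had 7.68, 7.26, 7.65, 7.51 and 7.66 in occluded MCAs, against 8.07 to 8.29 (median 8.17) in control MCAs (log2 difference -0.63, SE 0.0838, adjusted p = 8.55e-05). Smo overlapped between the groups and the other 2 did not. Endothelial junction genes were higher in 4 of 42 (9.52%) and lower in 9 (21.4%), the latter close to the 21.1% of all genes. Ocln, occludin, a tight junction protein, had 8.00, 7.37, 8.26, 7.21 and 7.39 in occluded MCAs, against 8.56 to 8.89 (median 8.65) in control MCAs, a 2.08-fold fall (log2 difference -1.05, SE 0.173, adjusted p = 4.31e-04). Cldn5, the main claudin of brain endothelium, had 9.36, 9.58, 10.92, 8.71 and 9.73 in occluded MCAs, against 10.33 to 10.80 (median 10.68) in control MCAs (log2 difference -0.98, SE 0.288, adjusted p = 0.0171). F12 lay above all control MCAs on Cldn5 and F15 was lowest, and with fewer arrays Cldn5 kept a difference of similar size but was not called (log2 difference -0.92, adjusted p = 0.118 without the 4 arrays of highest meningeal level, -0.96 and 0.0828 against control MCAs F16, F22 and F26 alone, and -0.98 and 0.074 without F10 and F33). Gja5, the connexin of arterial endothelium, rose 2.12-fold (log2 difference 1.08, SE 0.166, adjusted p = 2.64e-04). Of the 10 endothelial markers measured, Cldn5 and Tek among them, 1 was higher and 4 lower, with a median log2 difference of -0.35, and Vwf, von Willebrand factor, had 11.09 ± 0.38 in occluded and 11.10 ± 0.12 in control MCAs (log2 difference -0.014, SE 0.148, adjusted p = 0.952).

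Genes of zinc and iron handling were higher in 15 of 45 and lower in 4. Slc39a14, a zinc and iron importer, had 10.48, 10.93, 10.05, 10.78 and 10.71 in occluded MCAs, against 7.45 to 8.62 (median 8.18) in control MCAs, a 5.49-fold rise (log2 difference 2.46, SE 0.201, adjusted p = 2.34e-06). Steap4, a metalloreductase, had 7.48, 7.74, 6.93, 7.88 and 8.11 in occluded MCAs, against 5.26 to 5.83 (median 5.50) in control MCAs, a 4.3-fold rise (log2 difference 2.10, SE 0.178, adjusted p = 3.18e-06). Cp, ceruloplasmin, which oxidises iron for export, had 11.78, 11.78, 11.26, 11.82 and 11.70 in occluded MCAs, against 9.49 to 10.76 (median 10.25) in control MCAs, a 2.74-fold rise (log2 difference 1.46, SE 0.215, adjusted p = 1.99e-04). All occluded MCAs lay above the control MCAs on these genes, with F12 lowest. Slc40a1, the iron exporter ferroportin, went down 1.79-fold (log2 difference -0.84, SE 0.146, adjusted p = 6.53e-04), with F12 inside the control range, and the importer Slc39a8 fell 1.98-fold (log2 difference -0.99, SE 0.123, adjusted p = 5.45e-05). The 80 zinc finger proteins of the KRAB and SCAN type had 10 higher (12.5%) and 17 lower (21.2%), the latter close to the 21.1% of all genes.

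The arrays carry probe sets for 100 miRNA genes, of which 2 were higher and 6 lower. Over all genes 17.9% were higher and 21.1% lower, so miRNA genes were called less often than genes at large. Their probe sets read RNA from the precursor region and not the mature miRNA, and the genes named here were chosen after their values were seen. Mir145 and Mir143 lie side by side and their miRNAs are known for keeping smooth muscle cells contractile. Mir145 had 7.61, 9.14, 8.73, 8.02 and 8.86 in occluded MCAs, against 8.89 to 10.35 (median 9.76) in control MCAs (log2 difference -1.21, SE 0.333, adjusted p = 0.012), and Mir143 had 8.55, 9.55, 9.12, 8.87 and 9.36 in occluded MCAs, against 9.12 to 10.58 (median 10.08) in control MCAs (log2 difference -0.87, SE 0.284, adjusted p = 0.0284). The groups overlapped on both, with F8 lowest and F10 highest among the occluded MCAs. Mir143 was not called without F8 or F15 or without control MCA F4, F21 or F36 (log2 differences of -0.73 to -0.81), and neither gene was called against control MCAs F16, F22 and F26 alone, at -0.33 for Mir143 (adjusted p = 0.299) and -0.66 for Mir145 (adjusted p = 0.14). The mature forms on the main arm are given from the RefSeq table (GRCr8), with the seed, bases 2 to 8, in capitals. They show that the neighbours do not share a seed.
rno-miR-145-5p, chr18:57370033-57370055, minus strand: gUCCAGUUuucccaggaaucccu
rno-miR-143-3p, chr18:57371373-57371394, minus strand: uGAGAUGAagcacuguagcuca

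**Figure D5:**
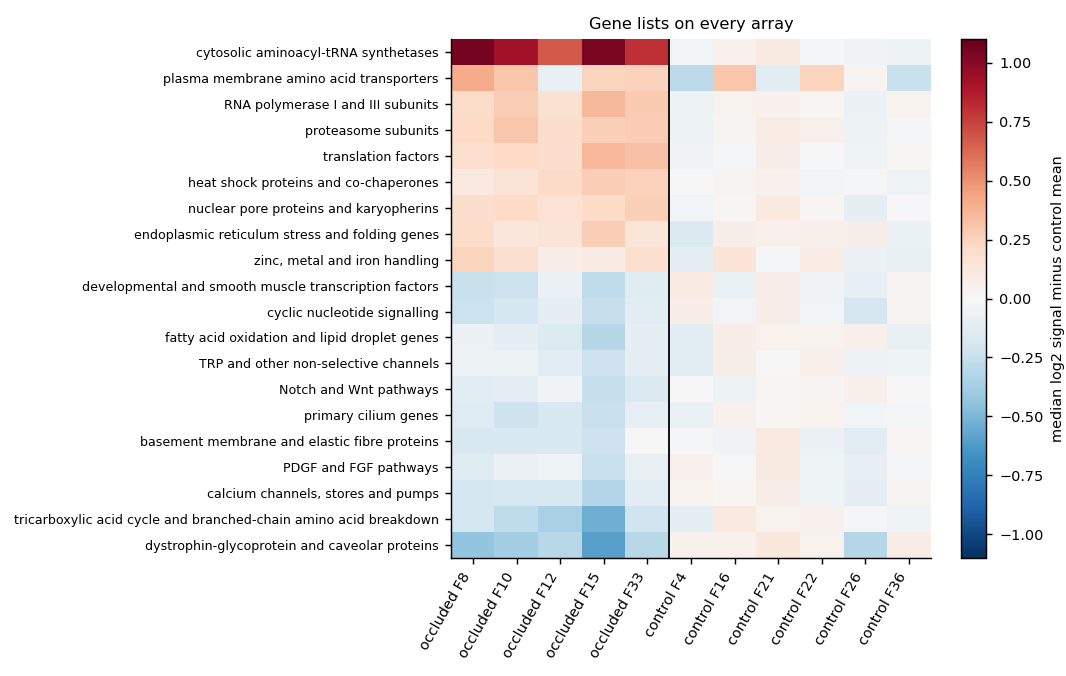
Median log2 signal of 20 gene lists on each of the 11 arrays, minus the mean of the 6 control arrays, for lists whose median log2 difference was at least 0.15 in size; red is higher, blue lower. Occluded MCAs F8 to F33 are left of the line and control MCAs right of it. Cytosolic synthetases ran from 0.68 in F12 to 1.06 in F8, and the amino acid transporters crossed 0 in both groups.

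Gene lists did not vary in step over the occluded MCAs. The median shift of the cytosolic synthetases was 1.06 in F8, 0.93 in F10, 0.68 in F12, 1.04 in F15 and 0.80 in F33. For heat shock proteins it was 0.11, 0.14, 0.21, 0.27 and 0.25 in the same order, so that F8 was highest on the synthetases and lowest on the heat shock list. The tricarboxylic acid cycle list gave -0.19, -0.28, -0.36, -0.54 and -0.22, and F15 was farthest from control. Control MCAs stayed between -0.11 and 0.11 on these 3 lists.

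The called genes of at least 2-fold change that differed most among the occluded MCAs were Lcn2, Pate4, Il11, Lif and Glrx. Lcn2, lipocalin-2, an iron-binding protein of neutrophils and stressed cells, had 10.35, 9.90, 7.65, 9.45 and 7.76 in occluded MCAs, against 5.51 to 6.20 (median 5.71) in control MCAs (log2 difference 3.27, SE 0.443, adjusted p = 9.97e-05), high in F8, F10 and F15 and lower in F12 and F33. Il11, a cytokine of the interleukin-6 family like Lif, had 6.05, 6.52, 7.63, 8.51 and 8.33 in occluded MCAs, against 4.49 to 4.92 (median 4.72) in control MCAs (log2 difference 2.71, SE 0.382, adjusted p = 1.37e-04), and both cytokines were lowest in F8, next in F10 and highest in F15. Glrx, glutaredoxin, had 7.15, 9.26, 8.87, 9.32 and 10.01 in occluded MCAs, against 6.50 to 7.42 (median 7.05) in control MCAs (log2 difference 1.91, SE 0.398, adjusted p = 0.00222), with F8 in the control range. Pate4, a small secreted protein, had 6.91, 8.11, 5.61, 8.01 and 5.68 in occluded MCAs, against 4.10 to 4.79 (median 4.63) in control MCAs (log2 difference 2.29, SE 0.428, adjusted p = 0.00108), with F12 and F33 far below the others. All but Glrx were above every control MCA in each occluded MCA.

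Tested directly with the rat as a random block, 2704 genes (20.6%) were higher and 2662 (20.3%) lower in occluded than in non-occluded MCAs. The counts against control and against non-occluded MCAs share the occluded arrays and are given side by side. Of 28 dystrophin-glycoprotein and caveolar genes 15 were lower than in control MCAs and 21 lower than in non-occluded MCAs. Of 52 genes of the tricarboxylic acid cycle list 33 were lower than in control MCAs and 20 lower than in non-occluded MCAs. Of 80 heat shock genes 37 were higher and 6 lower than in control MCAs, and 22 higher and 9 lower than in non-occluded MCAs. Genes with nearly the same difference in both comparisons included Ptgir (2.68 from control and 2.64 from non-occluded MCAs), Slc7a5 (3.12 and 3.07) and Hdac6 (1.27 and 1.29). For Nampt they were 1.34 and 0.42, and for Kcne3 -1.48 and -0.58.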

How the data were processed

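RNA of each MCA was hybridised to 1 Affymetrix whole-transcript rat array. The authors made log2 values with the RMA method of Expression Console 1.1.2 (Affymetrix), which corrects background, equalises the distributions of the arrays and gives 1 value per probe set. Probe sets whose signal lay below that of the median negative control in most samples had been removed by the authors, so a gene low in all arteries is not measured here. Columns of the authors' own comparisons (fold changes and p-values) were not used. The deposited log2 values of 11 arrays were fitted with limma 3.58.1 (R 4.3.3), with 1 mean per group and Benjamini-Hochberg adjustment over 13810 probe sets. The methods' own test, significance analysis of microarrays, is an alternative. Each gene was represented by its probe set of highest mean, for 13205 genes; 311 probe sets carry several symbols. The difference from non-occluded MCAs was fitted on 17 arrays with the rat as a random block (within-rat correlation 0.311). The fits were also run on simulated data with independent noise on each probe set. That simulation lacked variation shared along an array, such as meningeal level, and cannot check the fits for it. The number of arrays limits the precision, with a median SE of 0.0925 on the log2 scale. Promoter and miRNA sequences came from RefSeq tables (GRCr8), matched by symbol for 76.4% of genes. Further promoter searches were made. The metal response element (TGCACNC or TGCGCNC) was in 41.7% of 36 zinc, metal and iron promoters and in 36.1% of all promoters. The cAMP response element (TGACGTCA) was in 0 of 13 RGS, 0 of 13 Kruppel-like and 2 of 27 phosphatase and Sprouty promoters, beside 2.98% of all. The E-box was in 4 of 18 clock promoters and 3 of 37 serine, folate and polyamine promoters.

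The members and lists were chosen with earlier results of these data known. Named genes were the 15 largest rises and falls without overlap, the 4 members of smallest p and every called member of at least 2-fold change in each of 58 lists, all markers in 12 marker lists, and the 5 called genes of at least 2-fold change with the largest SD among occluded MCAs. Of 255 genes named, 71 lie outside this rule and were chosen after their values were seen. Some genes that the rule gives are not reported here.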

Additional observations from a re-analysis of the deposited data

Results flagged for a closer look

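Among the genes named, a single array stood apart from the rest of its group, with a gap to the nearest array past Dixon's limit for its share of the range, in 30 of 510 groups tested (5.88%). Chance alone gives about 1 in 20 such groups. Occluded MCA F12 had the lowest log2 signal, apart from the others, on Cp (11.26, others 11.70 to 11.82), Ctsb (12.05, others 12.35 to 12.43), Mthfd2 (8.08, others 8.62 to 8.80) and Slc7a11 (9.11, others 10.18 to 10.32). Occluded MCA F12 had the highest log2 signal, apart from the others, on Klhl38 (7.30, others 5.51 to 6.01). Occluded MCA F15 had the lowest log2 signal, apart from the others, on Idh3a (8.66, others 8.90 to 8.96), Manba (6.48, others 6.94 to 7.10), Slc2a4 (6.71, others 7.37 to 7.63), Tbxa2r (6.09, others 6.49 to 6.63) and Tyms (6.50, others 7.09 to 7.29). Occluded MCA F8 had the lowest log2 signal, apart from the others, on Nampt (9.68, others 9.96 to 10.05) and Tgfb3 (9.17, others 9.80 to 10.02). Occluded MCA F8 had the highest log2 signal, apart from the others, on Nr3c2 (7.42, others 6.85 to 7.01).

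Control MCA F26 accounted for 13 of the 30 groups, and was the low array of the 6 in each. Its log2 signals lay apart on Casq2 (10.22, others 10.90 to 11.11), Dag1 (10.05, others 10.52 to 10.73), Fhl5 (8.41, others 9.31 to 9.73), Gja5 (7.45, others 8.17 to 8.45), Idh3a (8.90, others 9.54 to 9.78), Kcnmb1 (10.76, others 11.37 to 11.71) and Klhl38 (7.35, others 8.07 to 8.44). It was also lowest on Lims2 (9.39, others 10.07 to 10.32), Lrrc39 (6.21, others 7.06 to 7.51), Nampt (8.33, others 8.60 to 8.73), Pdgfrb (10.80, others 11.11 to 11.30), Ptgir (5.47, others 5.91 to 6.07) and Vim (13.25, others 13.33 to 13.37). Control MCA F4 was the high array on Adamts1 (9.51, others 8.66 to 8.96) and Nos3 (9.66, others 9.52 to 9.56). Control MCA F16 was the low array on Pate4 (4.10, others 4.59 to 4.79). Control MCA F21 was the low array on Dusp5 (5.14, others 5.69 to 5.81). Without F26 2289 genes were higher and 2831 lower in occluded than in control MCAs.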

How the results depend on the processing

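No gene called as reported was called in the opposite direction in another setting, except 1 when the probe sets of a gene were averaged. With significance analysis of microarrays at a q of 0, 1152 genes were higher and 1022 lower; with a minimum of 1.5-fold, 937 and 872; and with an adjusted p under 0.01, 1788 were lower. Significance analysis of microarrays was the stricter test of the same arrays, and all 2174 genes it called were called by limma in the same direction. Genes named above that limma called and it did not include Adm, Ano1, Cct4, Chordc1, Cldn5, Creld2, Dnajc3, Hsph1, Idh3a, Ldha and Ldhb. They also include Mir143, Mir145, Mmp9, Npr3, Npy1r, Orai1, Slc2a1, Slc2a4, Slc3a2, Smo and Tgfb3. Against control MCAs F16, F22 and F26 alone, the arrays of highest meningeal level, 303 genes were at least 2-fold lower; this setting and those with the meningeal covariate and without other arrays that stood apart were chosen after seeing the data. The cause of these shifts was not tested, apart from the stricter thresholds. Leaving out each array in turn gave 2083 to 2373 genes higher, 2319 to 2831 lower, 391 to 477 at least 2-fold higher and 167 to 243 at least 2-fold lower. Fitting 17 arrays with the rat as replicate block gave 2526 higher, 3039 lower, 431 at least 2-fold higher and 200 at least 2-fold lower, against 2545, 3018, 431 and 198 without the block; the numbers shared by occluded and non-occluded MCAs name the same rat in the labels, whereas occluded and control MCAs share no rat. Centring each array on its median gave 49.2% of calls higher and cyclic loess 50.5%, against 45.9% as reported. Over the settings the list counts stayed within 1.5 times the reported count in 2523 of 2900 cases and moved further in 377.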
